A study of Mus musculus with 6 samples.

Results

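The endoplasmic reticulum (ER) is the compartment in which secreted and membrane proteins are folded, and the unfolded protein response is the signalling that adjusts its folding capacity. The genes followed here are 30 named genes of ER folding and this response, measured in pancreatic tumour organoids that were heterozygous for a mutant Trp53 allele or had lost the wild-type allele (LOH, loss of heterozygosity). The list was given by name. All 30 genes were found among the 53379 genes of the deposited count table, and all 30 were among the 14537 genes with enough counts to test. They fall into 7 roles, namely 5 ER sensors with their transcription factor, 3 HSP70 and HSP90 chaperones, 6 co-chaperones and secreted ER factors, 2 lectin chaperones, 4 protein disulfide isomerases, 7 genes of ER-associated degradation and 3 of the translocon.

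The libraries were total RNA of epithelial organoids, cultures grown in 3 dimensions in a basement membrane gel from pancreatic tumours of C57/Bl6 mice. All of these mice carried the Pdx1-Cre driver, which recombines conditional alleles in the pancreatic epithelium. The heterozygous group (n = 3) carried the conditional Trp53 R172H allele beside a wild-type copy, and the LOH group (n = 3) is labelled as Trp53 R172H over a lost copy. The same 3 organoid lines, numbered 6, 23 and 34, gave 1 library to each group. The sample descriptions of the LOH libraries also end in "Nut", which the labels do not explain, so that whatever it stands for and the genotype cannot be told apart. In each line a single pair of libraries was available, and p-values measure the spread between the lines.

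As background, 3 kinds of transmembrane sensor report unfolded protein in the ER. IRE1, made by Ern1 and in mucus-secreting epithelia also by Ern2, cuts a short stretch out of Xbp1 mRNA and so lets a strong transcription factor be made. PERK, made by Eif2ak3, slows translation and favours ATF4, and ATF6 is itself cleaved to release a transcription factor. The targets of ATF6 and XBP1 include the chaperones of the ER lumen and the machinery of ER-associated degradation, which moves misfolded proteins out to the proteasome.

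Library totals lay between 13680458 and 27917277 expected counts. Trp53 itself, a check that cannot separate its alleles, in lines 6, 23 and 34 stood at 77.3, 76.3 and 86.5 CPM in heterozygous and 73.5, 52.5 and 47.4 CPM in LOH organoids, a log2 difference of -0.47 (SE 0.22, adjusted p = 0.227, edgeR). CPM, the read count relative to library size, is taken here after TMM scaling, which sets the bulk of genes equal between libraries. Most of the listed markers of acinar, stromal and immune cells were near 0. Of the 12 acinar markers, 11 had at most 3 counts in every library, the 10 fibroblast markers summed to at most 1.16 CPM, and 6 of 10 plasma and B cell markers (among them Jchain, Mzb1, Cd79a, Ms4a1 and Irf4) and 6 of 10 leukocyte markers had at most 3 counts. The remaining markers of these last lists brought their sums to 252 to 312 CPM in heterozygous and 336 to 618 CPM in LOH libraries for plasma and B cells, and to 46.2 to 49.3 and 23.1 to 48.3 CPM for leukocytes. Nearly all of the plasma and B cell sum was Sdc1. In lines 6, 23 and 34 it stood at 252, 311 and 273 CPM in heterozygous and 334, 418 and 616 CPM in LOH libraries. The ductal markers summed to 5361 to 11572 CPM, with all 10 detected. In bulk RNA, fewer cells of a type and less RNA per cell cannot be told apart.

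The sequences through which this response reads and writes its genes are shown first, because several of the genes below carry them. ATF6 with NF-Y binds the ER stress response element, ERSE, written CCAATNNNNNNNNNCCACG. It was searched on both strands of the RefSeq promoters (GRCm38.p6), 250 bases before to 50 after each gene's start. Of the 24 members with an entry, 9 held it (Hspa5, Hsp90b1, Calr, Canx, Pdia6, Dnajc3, Creld2, Syvn1 and Derl3), beside 39 of all 32851 promoters, or 0.119%. The shorter ERSE-II, ATTGG and CCACG with any 1 base between them, was found in 2 members, Herpud1 and Dnajb11, and in 12 promoters in all (0.0365%). No member held the core of the UPRE, TGACGTGG, which 222 promoters (0.676%) did. The 5 ERSE promoters of the abundant chaperones and the ERSE-II promoter of Herpud1 are printed here on the gene's strand, with the motif in capitals; in Calr the capitals read as the reverse complement, and Hsp90b1 has 2 copies, one in each direction.
Hspa5, chr2:34772010-34772058, plus strand: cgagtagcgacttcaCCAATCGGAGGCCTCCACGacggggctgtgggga
Hsp90b1, chr10:86705518-86705671, minus strand: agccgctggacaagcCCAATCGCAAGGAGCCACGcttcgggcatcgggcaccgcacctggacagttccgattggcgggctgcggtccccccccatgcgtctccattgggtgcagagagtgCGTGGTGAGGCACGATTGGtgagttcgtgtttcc
Calr, chr8:84847060-84847108, minus strand: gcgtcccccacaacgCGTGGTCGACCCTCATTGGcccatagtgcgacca
Canx, chr11:50325785-50325833, minus strand: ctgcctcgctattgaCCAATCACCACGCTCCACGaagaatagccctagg
Pdia6, chr12:17266476-17266524, plus strand: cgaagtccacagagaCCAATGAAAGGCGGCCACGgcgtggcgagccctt
Herpud1, chr8:94386362-94386402, plus strand: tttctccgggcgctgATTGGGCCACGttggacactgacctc
A match is only a run of letters in this window and shows no binding. The 9 members with an ERSE had a median log2 difference between LOH and heterozygous libraries of -0.09, from -0.40 in Canx to 0.62 in Syvn1, and none of the 9 was called by edgeR, which called 5.21% of all genes. Canx, at -0.77 by both limma fits on TPM, was called there (adjusted p = 0.0354 and 0.0367).

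Between the genotypes, 1 of the 30 genes rose with LOH and none fell. The gene was Ern2, at 11.1 times the heterozygous level. The test was edgeR's quasi-likelihood test over all 14537 genes with Benjamini-Hochberg adjustment, at an adjusted p of 0.05. By the same test 5.21% of all genes were called, 3.55% higher and 1.66% lower, so a share of 1 in 30 does not stand above the rest of the transcriptome. With organoid line as a block 1.47% of all genes were called, and Ern2 was again the one member among them. The members' median log2 difference was -0.03, beside 0.06 over all genes, and the median size of the difference, with its sign dropped, was 0.27 beside 0.46. Of the 30, 24 differed by less than 0.5 and 27 by less than 1 on the log2 scale.

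Groups whose 3 libraries did not overlap in CPM were found for 6 of the 30 members, against 32.8% of all genes. They were Ern2, Herpud1, Dnajb9 and Sel1l, higher in every LOH library, and Canx and Ssr1, lower in every LOH library. An unadjusted p under 0.05 was reached by 6 members, 4 higher and 2 lower, and by 3681 of the 14537 genes. The spread between lines was wider with LOH for most of the list: the SD of log2 CPM was larger in the LOH group for 25 of 30 members (83.3%), as it was for 79.1% of all genes.

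**Figure D1:**
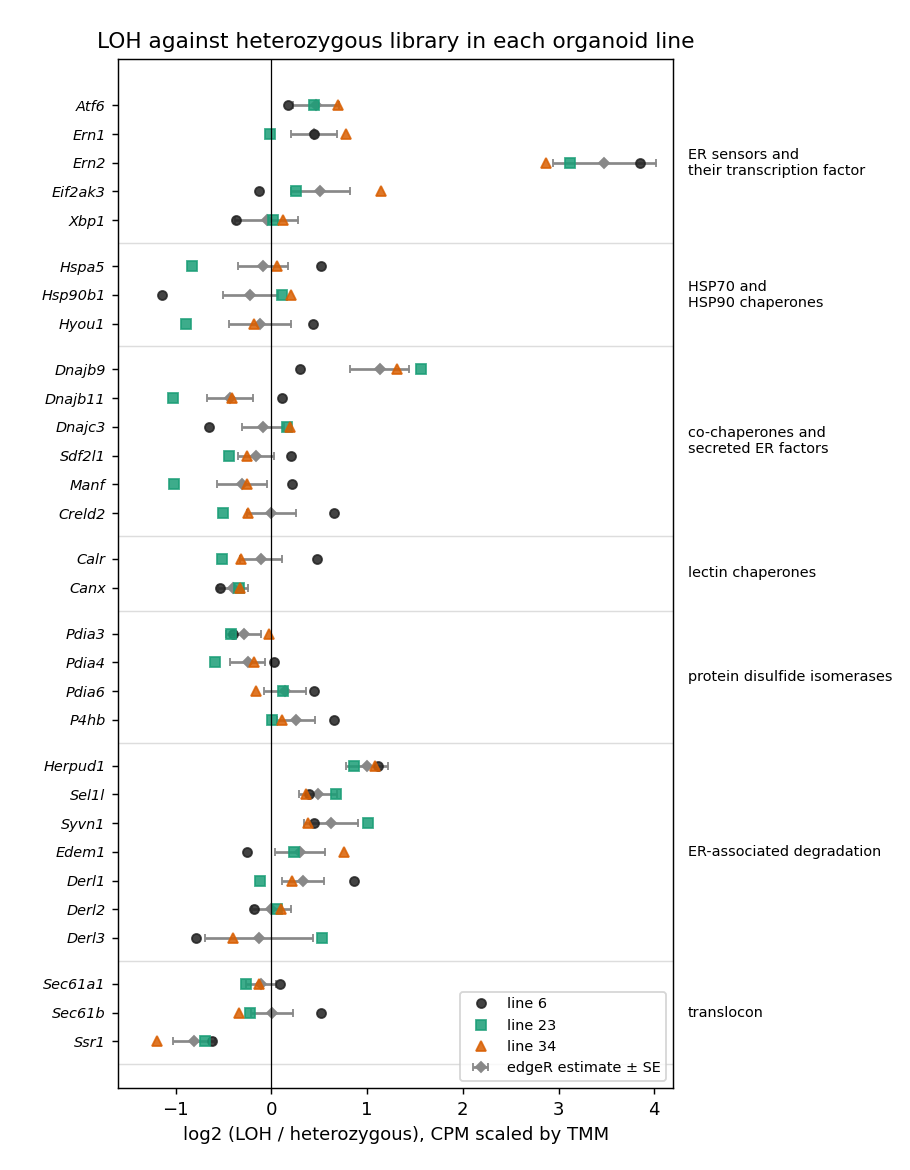
Log2 ratio of the LOH to the heterozygous library in each organoid line (points) and the edgeR estimate with its SE (grey diamonds) for the 30 genes, grouped by role; the horizontal axis is on the log2 scale. Ern2 sits between 2.87 and 3.85 in the 3 lines, and 24 of the 30 estimates lie within 0.5 of 0.

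Among the sensors, Ern2 encodes IRE1 beta, the form of the sensor found in mucus-secreting epithelium (ENSMUSG00000030866.8, GRCm38 chromosome 7, 122169893 to 122186207, minus strand). In lines 6, 23 and 34 its heterozygous level was 2.54, 2.30 and 1.34 CPM, and its LOH level was 37.6, 20.6 and 10.3 CPM. Every LOH library stood above every heterozygous one, and the order of the lines was the same in both groups, with line 6 highest and line 34 lowest. The log2 difference was 3.48 (SE 0.54, adjusted p = 0.0229, edgeR), and the lines taken singly gave 3.85, 3.12 and 2.87. These values rest on 31 to 76 counts in the heterozygous and 222 to 646 in the LOH libraries.

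The call for Ern2 was met in 13 of 18 alternative analyses, with adjusted p between 4.8e-09 and 0.186. It was missed on leaving out the heterozygous library of line 6, 23 or 34 (adjusted p = 0.117, 0.113 and 0.124), or line 23 or line 34 from both groups (0.186 and 0.0775), settings in which edgeR called no gene at all. Its log2 difference stayed between 2.87 and 3.82 when libraries or lines were left out. By limma it was 2.01 on log2(TPM + 1), a pseudocount that is large beside its level, and 2.80 on log2(TPM + 0.1). On these 2 scales the median of all genes shifted by -0.42 and -0.48 relative to TMM-scaled counts. The part of scale and pseudocount in the lower values was not tested.

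Ern1, which encodes the widely expressed IRE1 alpha, differed by 0.44 (SE 0.24, adjusted p = 0.301). It measured 33.1, 28.9 and 27.7 CPM in the heterozygous and 45.3, 28.6 and 47.5 CPM in the LOH libraries, so that the groups overlapped through line 23. In TPM, a transcript level per length, Ern2 made up 12.8, 14.3 and 7.85% of the summed Ern1 and Ern2 level in the heterozygous libraries of lines 6, 23 and 34. In the LOH libraries its share was 61.8, 58.3 and 28.3%. In lines 6 and 23 the LOH libraries thus held more Ern2 than Ern1 transcript, and in line 34 less.

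Markers of goblet and mucous cells were also higher on average in the LOH libraries. All 9 that could be tested had a log2 difference above 0 (median 1.85), and 2 of the 9 were called, Spdef, a transcription factor of secretory cells, at 3.47 (SE 0.75, adjusted p = 0.0468, edgeR) and Clca1, a secreted goblet cell protein, at 4.90 (SE 0.99, adjusted p = 0.0399). With line as a block neither passed (adjusted p = 0.0534 and 0.079). In line 23, 4 of the 9 were lower with LOH, namely Tff3 (log2 ratio -5.20), Tff2 (-1.22), Fcgbp (-0.63) and Tff1 (-0.02). Muc5ac was lower in line 6 (-0.34), and Tff2 also in line 34 (-0.16). The 11 listed markers summed to 121, 73 and 53 CPM in the 3 heterozygous libraries, in the order of lines 6, 23 and 34, and to 779, 106 and 344 CPM in the LOH libraries. In the LOH library of line 6, Tff1 alone held 456 of the 779 CPM. Line 23 had the smallest sum of the LOH libraries and the second highest Ern2. Among the LOH libraries it was highest in Spdef (34.9 CPM), Muc2 (3.59 CPM) and Muc5ac (14.8 CPM). It was lowest in Tff1, Tff2, Tff3, Fcgbp and Clca1, and between the others in Muc6. Atoh1, which directs secretory fate in the gut, had at most 3 counts in every library. The part of these markers in the Ern2 result was not tested.

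**Figure D2:**
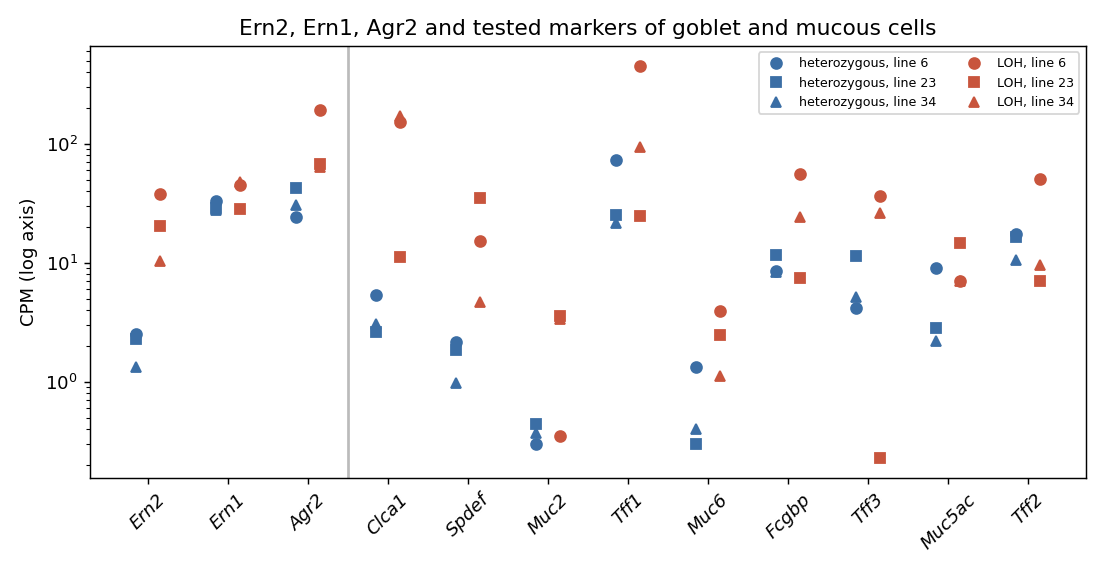
CPM per library (log axis) of Ern2, Ern1, Agr2 and, right of the vertical line, the 9 tested markers of goblet and mucous cells in order of their log2 difference; blue is heterozygous, red is LOH, and the symbol gives the organoid line. For Ern2, Agr2, Clca1 and Spdef every red point lies above every blue one, while the groups overlap for the other 7 markers and for Ern1.

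The other sensors did not pass. Atf6 measured 56.5, 75.2 and 62.8 CPM in the heterozygous and 63.7, 103 and 102 CPM in the LOH libraries, higher in all 3 lines (log2 difference 0.47, SE 0.24, adjusted p = 0.276, edgeR). Eif2ak3, the gene of PERK, measured 24.3, 28.4 and 23.5 CPM and 22.3, 34 and 52.2 CPM. Its difference of 0.51 (SE 0.31, adjusted p = 0.349) came mostly from line 34, whose own log2 ratio was 1.15.

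Xbp1, the transcription factor that IRE1 activates, had group means that differed by less than the spread between lines. It measured 113, 179 and 108 CPM in the heterozygous and 87.5, 182 and 118 CPM in the LOH libraries, with line 23 highest in both, a log2 difference of -0.05 (SE 0.33, adjusted p = 0.936, edgeR). Its activity depends on the stretch that IRE1 removes, which lies in exon 4 of 5, in the coding sequence, at GRCm38 chr11:5524279-5524304 on the plus strand. That stretch of 26 bases stands in capitals here, with 30 bases on each side.
Xbp1, chr11:5524249-5524334, plus strand: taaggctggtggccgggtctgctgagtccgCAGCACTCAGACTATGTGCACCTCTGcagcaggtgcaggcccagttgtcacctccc
With it the longest reading frame of the main transcript runs 267 codons, and without it 371.

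The transcript table cannot separate the cut from the uncut form. Of its 4 Xbp1 transcripts, 3 contain the letters of the stretch uncut (Xbp1-201, Xbp1-203 and Xbp1-204), the fourth is a retained-intron transcript without it, and none has the 26 bases removed. The cut form therefore had no transcript of its own, and IRE1's cut was not measured. Where reads across the cut were assigned is not known here. The main transcript, Xbp1-201, took 86.9% ± 2.64 (SD, n = 3) of the Xbp1 TPM in the heterozygous and 87.6% ± 2.72 (SD, n = 3) in the LOH libraries, a difference of 0.76 points (exact permutation test, two-sided, p = 0.6). The other 3 transcripts gave exact permutation p-values of 0.2 to 0.7, in a design whose smallest possible p is 0.1.

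The abundant HSP70 and HSP90 chaperones did not move one way across lines. Hspa5, which encodes BiP, the ER's HSP70 and the usual gauge of ER stress (ENSMUSG00000026864.13, chromosome 2, 34771970 to 34777547, plus strand), measured 532, 879 and 592 CPM in the heterozygous and 763, 496 and 619 CPM with LOH. The highest and the lowest of the 6 values were the 2 libraries of line 23, and the groups overlapped. The log2 difference was -0.09 (SE 0.26, adjusted p = 0.848, edgeR), made up of 0.52 in line 6, -0.83 in line 23 and 0.06 in line 34. Hsp90b1, which encodes GRP94, measured 551, 422 and 437 CPM and 250, 455 and 503 CPM, so that the LOH library of line 6 stood lowest by far (log2 difference -0.22, SE 0.29, adjusted p = 0.654). Hyou1, a large HSP70 relative that exchanges BiP's nucleotide, followed Hspa5, with line ratios of 0.43, -0.89 and -0.18 (estimate -0.12, adjusted p = 0.837). In line 6 BiP and GRP94 thus went opposite ways, with log2 ratios of 0.52 and -1.14. In line 23 BiP was lower (-0.83) and GRP94 was close to unchanged (0.11).

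**Figure D3:**
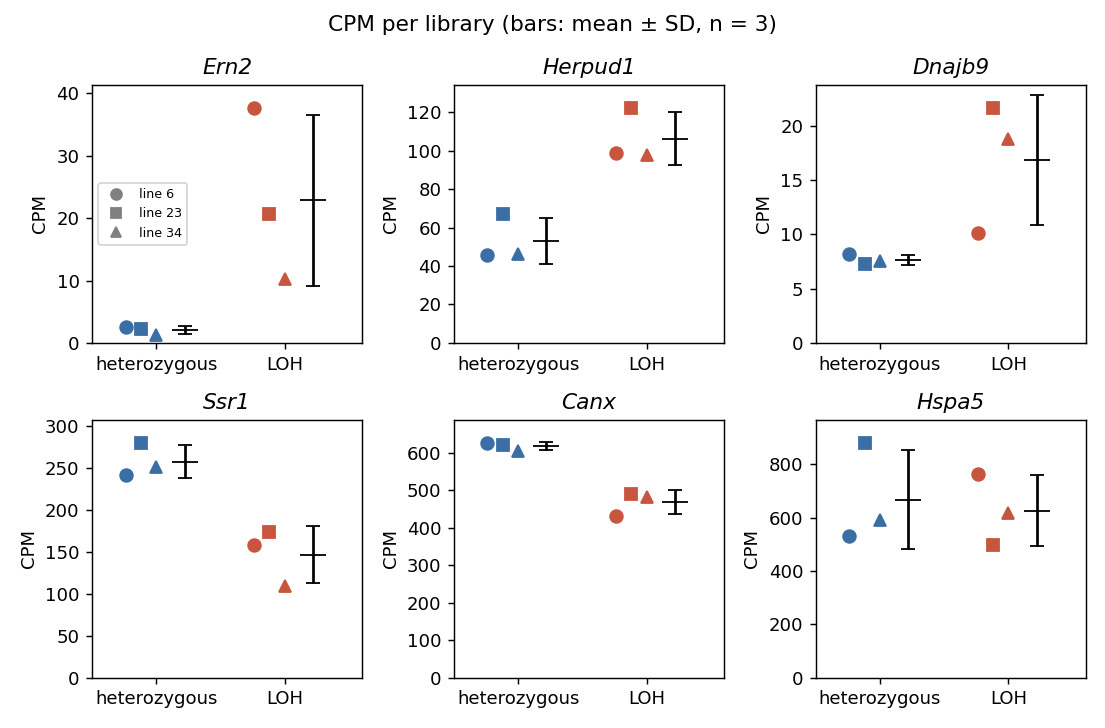
CPM per library of 6 of the genes in heterozygous (blue) and LOH (red) organoids, with symbols for the 3 lines and the mean ± SD (n = 3) beside them; each vertical axis starts at 0. The groups do not overlap for Ern2, Herpud1, Dnajb9, Ssr1 and Canx, and they overlap for Hspa5.

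Of the co-chaperones and secreted ER factors, 5 of 6 had estimates at or below 0 and the sixth, Dnajb9, was the second highest of all 30. Dnajb9 encodes ERdj4, a J-domain partner of BiP and a target of XBP1 (ENSMUSG00000014905.4, chromosome 12, 44205559 to 44210326, minus strand). It measured 8.17, 7.27 and 7.54 CPM in the heterozygous and 10.1, 21.6 and 18.8 CPM in the LOH libraries, which did not overlap, with line 6 nearest to the heterozygous level. The log2 difference of 1.13 (SE 0.31) missed the threshold (adjusted p = 0.082, edgeR). It passed in 3 of 18 alternatives, settings that called 16.2, 9.66 and 15.7% of all genes. These were without the LOH library of line 6 (1.36, adjusted p = 0.017, edgeR), without line 6 (1.42, adjusted p = 0.0404, edgeR) and DESeq2 (1.12, adjusted p = 0.0157). With line as a block the adjusted p was 0.19, and without line 23 it was 0.395 (edgeR). The 560 tested genes of chromosome 12 had a median of 0.34, and medians of 0.16, 0.51 and 0.21 in lines 6, 23 and 34, beside 0.30, 1.56 and 1.31 for Dnajb9. The part of the chromosome in this difference was not tested.

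The other J-domain genes lay lower. Dnajb11, a luminal BiP partner, had the second lowest estimate of the list, -0.43 (SE 0.24, adjusted p = 0.31, edgeR). It measured 73.0, 98.3 and 93.4 CPM in the heterozygous and 78.5, 47.9 and 70.3 CPM in the LOH libraries, with the gap widest in line 23. Dnajc3, which encodes the PERK pathway inhibitor p58IPK, differed by -0.09 (adjusted p = 0.824). Sdf2l1, a partner of BiP's J-domain proteins, measured 28.6, 34.7 and 33.1 CPM and 32.8, 25.6 and 27.8 CPM, a log2 difference of -0.16 (SE 0.19, adjusted p = 0.61). Manf, a secreted factor that binds BiP, differed by -0.31 (adjusted p = 0.484). Creld2, a secreted ER stress protein, measured 28.0, 37.3 and 33.0 CPM and 43.9, 26.2 and 27.9 CPM, so that the LOH library of line 6 was the highest and that of line 23 the lowest of all 6, and the group means were equal within their spread (32.8 ± 4.67 and 32.7 ± 9.80 CPM, SD, n = 3, adjusted p = 0.994).

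The lectin chaperones hold newly made glycoproteins until they are folded. Canx, the membrane-bound calnexin (ENSMUSG00000020368.15, chromosome 11, 50293961 to 50325673, minus strand), had the tightest heterozygous group of the list, at 626, 621 and 606 CPM, and measured 432, 491 and 481 CPM with LOH. The groups did not overlap, and the log2 difference was -0.40 (SE 0.16, adjusted p = 0.17, edgeR). Canx passed in 2 of 18 alternatives, both limma fits on TPM (-0.77, adjusted p = 0.0354 and 0.0367), a scale on which the median of all genes was also lower. Calr, its soluble relative calreticulin, measured 486, 684 and 597 CPM and 676, 477 and 479 CPM. Those groups overlapped, and the difference was -0.11 (SE 0.22, adjusted p = 0.777).

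The protein disulfide isomerases form and shuffle disulfide bonds, and none of the 4 passed. P4hb, the most abundant of them, measured 632, 823 and 686 CPM in the heterozygous and 993, 827 and 741 CPM in the LOH libraries, higher in all 3 lines though by only 0.01 in line 23 (log2 difference 0.26, SE 0.20, adjusted p = 0.443, edgeR). Pdia3, the partner of calnexin and calreticulin, was lower in all 3 lines, with an estimate of -0.29 (adjusted p = 0.35). Pdia4 and Pdia6 differed by -0.25 (adjusted p = 0.415) and 0.14 (adjusted p = 0.717).

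In ER-associated degradation, 6 of 7 estimates were above 0, beside 7850 of all 14537 genes tested. The 6 include Derl2, whose estimate rounds to 0.00. The median of the 7 was 0.33, and none passed the test. Herpud1 came nearest. It encodes a membrane protein that organises the degradation complex (ENSMUSG00000031770.16, chromosome 8, 94386438 to 94395377, plus strand) and overlaps Gm15890 on the other strand. It measured 45.8, 67.0 and 46.3 CPM in the heterozygous and 99.0, 122 and 97.7 CPM in the LOH libraries. All 3 LOH libraries lay above all heterozygous ones, and the 3 lines gave nearly the same ratio, 1.11, 0.86 and 1.08 on the log2 scale. The estimate was 1.0 (SE 0.22), a doubling, and its adjusted p of 0.0501 (edgeR) just missed the threshold. It passed in 5 of 18 alternatives, with adjusted p from 0.00189 by DESeq2 to 0.269 without line 34, and with line as a block the adjusted p was 0.0977.

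Sel1l and Syvn1 make the core of the channel and ubiquitin ligase (SEL1L and HRD1) through which luminal proteins leave. Sel1l measured 83.9, 88.4 and 75.2 CPM in the heterozygous and 110, 141 and 96.9 CPM in the LOH libraries, which did not overlap (log2 difference 0.49, SE 0.20, adjusted p = 0.181, edgeR). Syvn1 measured 19.0, 13.4 and 12.4 CPM and 25.8, 27.1 and 16.1 CPM, higher within every line though the groups overlapped (0.62, SE 0.28, adjusted p = 0.223). Edem1, which directs trimmed glycoproteins to degradation, and Derl1, a membrane factor of the exit channel, differed by 0.30 (adjusted p = 0.498) and 0.33 (adjusted p = 0.377), each with 1 line of the opposite sign. Derl2 stood at 0.00 (adjusted p = 0.993). Derl3 was under 1 CPM in every library, with 5 to 18 counts, and its estimate of -0.13 has an SE of 0.56. The tested genes of the same chromosome had a median of 0.19 for Herpud1, 0.34 for Sel1l, 0.35 for Syvn1 and 0.22 for Derl1. For Edem1, Derl2 and Derl3 that median was 0.11, 0.05 and -0.07. The part of the chromosomes in these differences was not tested.

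Ssr1, one of the translocon-associated proteins through which new chains enter the ER (ENSMUSG00000021427.10, chromosome 13, 37966605 to 37994217, minus strand), had the lowest estimate of the 30 genes. It measured 242, 280 and 251 CPM in the heterozygous and 158, 174 and 109 CPM in the LOH libraries, which did not overlap and of which line 34 was lowest. The log2 difference was -0.81 (SE 0.22, adjusted p = 0.0771, edgeR). Ssr1 passed in 3 of 18 alternatives, by DESeq2 (adjusted p = 0.0125) and by both limma fits on TPM (adjusted p = 0.0166 and 0.0184). On that TPM scale the median of all genes was also lower. With line as a block the adjusted p was 0.15, and without line 34 it was 0.332 (edgeR). The 604 tested genes of chromosome 13 had a median of -0.36, with -0.56, -0.07 and -0.66 in lines 6, 23 and 34, beside -0.62, -0.69 and -1.20 for Ssr1. In line 6 the gene and its chromosome thus lay at nearly the same ratio, and in line 23 they did not. The part of the chromosome in this difference was not tested. Sec61a1 and Sec61b, subunits of the protein-conducting channel itself, differed by -0.11 (adjusted p = 0.707) and 0.01 (adjusted p = 0.986).

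Per length, the genes spanned a wide range of levels and kept nearly the same order in both groups. Calr led with 442 ± 54.9 TPM (SD, n = 3) in the heterozygous libraries, followed by Hspa5 with 363 ± 65.5, P4hb with 315 ± 11.6, Canx with 246 ± 35.3 and Hsp90b1 with 209 ± 61.7 TPM. Neighbours in that order overlapped over the 3 libraries, except that P4hb (302 to 325 TPM) lay above Canx (218 to 286 TPM). These 5 genes made up 56.7% of the summed TPM of the list in the heterozygous and 56.4% in the LOH group. The sensors were scarce, with Atf6 at 10.3 ± 0.675, Eif2ak3 at 7.07 ± 0.737 and Ern1 at 6.42 ± 1.43 TPM, and Ern2 was the second lowest of the 30 at 0.850 ± 0.325 TPM. With LOH, Ern2 stood at 7.37 ± 5.0 TPM, between Eif2ak3 and Ern1.

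**Figure D4:**
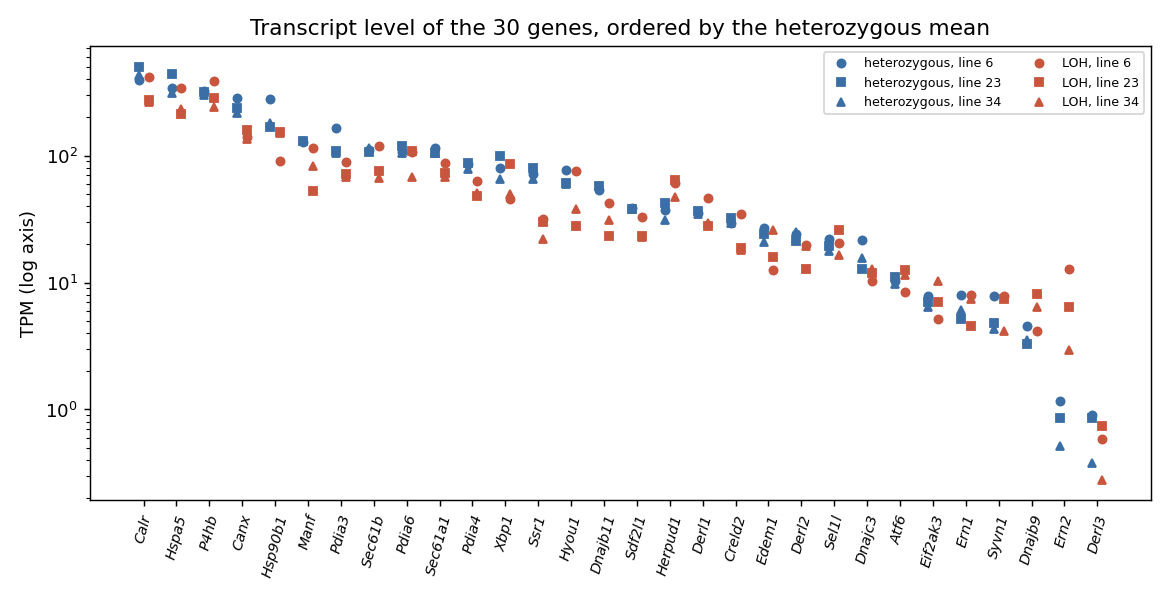
TPM (log axis) of the 30 genes in each library, ordered by their mean in the heterozygous organoids; blue is heterozygous, red is LOH, and the symbol gives the organoid line. Levels run from Calr at a heterozygous mean of 442 TPM to Derl3 at 0.713 TPM, and for most genes the red points lie somewhat below the blue ones, as does the median of all genes on this scale, while Ern2 and Herpud1 lie higher.

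The list as a whole held 2893, 2873 and 2567 TPM in the heterozygous and 2428, 1925 and 1803 TPM in the LOH libraries, a ratio of 0.739. That ratio follows the scale. Protein-coding genes accounted for 48.9, 46.1 and 46.2% of all TPM in heterozygous but for 39.5, 32.7 and 35.4% in LOH organoids, and on log2(TPM + 1) the median of all genes shifted by -0.42 relative to TMM-scaled counts. With that scale the share of higher calls among all genes went from 68.2% to 14.7%, and 15.2% with a pseudocount of 0.1. Relative to the median of all genes the members' median was -0.09 with TMM and -0.10 on log2(TPM + 1). Rescaled so that the genes of the protein-coding table have the same total in every library, the list held 5919, 6237 and 5562 in the heterozygous and 6152, 5881 and 5089 in the LOH libraries, a ratio of 0.966, with overlapping groups. On the same scale the 7 degradation genes held 316, 323 and 290 against 426, 474 and 403, a ratio of 1.40 without overlap. In TPM over all genes their ratio was 1.07, and the groups overlapped (154, 149 and 134 against 168, 155 and 143). On the protein-coding scale, Herpud1 alone went from a mean of 78.1 to 162. The other 6 degradation genes held 239, 232 and 224 against 272, 277 and 269 there, a ratio of 1.18. The sensors and Xbp1 had a ratio of 1.16, the disulfide isomerases 1.09, the HSP70 and HSP90 chaperones 0.904, the lectin chaperones 0.876, the co-chaperones and secreted factors 0.864 and the translocon 0.86.

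The lines disagreed more often than they agreed. LOH was higher in all 3 lines for 7 members (Atf6, Ern2, Dnajb9, P4hb, Herpud1, Sel1l and Syvn1) and lower in all 3 for 3 (Canx, Pdia3 and Ssr1). The other 20 (66.7%) had mixed signs, beside 55.5% of all genes tested. In 12 members (40.0%, beside 20.9% of all genes) the LOH library was higher in line 6 and lower in line 23, and these included the chaperones and secreted factors Hspa5, Hyou1, Calr, Dnajb11, Sdf2l1, Manf, Creld2 and Pdia4. The opposite pattern, lower in line 6 and higher in line 23, held for 7 members (23.3%, beside 23%). Among them were Xbp1 and Hsp90b1, whose log2 ratios in line 23 were only 0.02 and 0.11. With 1 library per line and group, no line's ratio has a test of its own.

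The other genes of the pathway came from lists drawn up by role. By edgeR, which called 5.21% of all genes, no gene was called among 29 further folding enzymes and chaperones (median 0.24), 21 further degradation genes (0.20), 29 genes of translocation, signal peptidase and glycosylation (0.03), 12 of the PERK and ATF4 output (0.13) and 3 tested IRE1 decay substrates (-0.30). These lists had 5, 5, 2, 3 and 1 genes with an unadjusted p under 0.05 by edgeR, beside 25.3% of all genes. Among 21 further regulators 1 was lower, and among 20 genes of COPII transport and retrieval 1 was higher. By DESeq2, which called 15.7% of all genes, the calls in the first 5 lists were 1, 3, 0, 2 and 1, with 4 regulators and 3 COPII genes. By limma on log2(TPM + 1), with 16% of all genes, they were 2, 5, 1, 1 and 1, with 4 and 3. Without the LOH library of line 6, with 16.2% of all genes, edgeR called 3, 4, 1, 1 and 0, with 2 and 2.

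The genes downstream of PERK did not pass the test. Atf4 measured 242, 349 and 278 CPM in the heterozygous and 281, 254 and 271 CPM in the LOH libraries, a log2 difference of -0.11 (SE 0.19, adjusted p = 0.755, edgeR). Ddit3, the gene of the death-linked factor CHOP, measured 2.67, 7.57 and 3.64 CPM and 5.36, 11.1 and 9.97 CPM. It was higher within each line, and the difference was 0.94 (SE 0.47, adjusted p = 0.261). Chac1, an ATF4 and CHOP target, differed by 0.87 (adjusted p = 0.169), Atf3 by 0.76 (adjusted p = 0.529), Trib3 by 0.38 (adjusted p = 0.606) and Ppp1r15a, whose GADD34 product reverses PERK's block, by 0.01 (adjusted p = 0.994). Bloc1s1, a transcript that IRE1 cuts and that then decays, stood at 10.2 ± 1.73 CPM in the heterozygous and 11.1 ± 1.99 CPM (SD, n = 3) in the LOH group, a log2 difference of 0.13 (SE 0.25, adjusted p = 0.776).

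The lower regulator was Bax, a pore-forming death protein that binds IRE1 and is best known as a p53 target. It measured 83.6, 95.1 and 92.3 CPM in the heterozygous and 32.2, 19.3 and 22.7 CPM in the LOH libraries. Its log2 difference was -1.87 (SE 0.24, adjusted p = 0.0164, edgeR), or -1.90 with an adjusted p of 0.0534 with line as a block. The higher transport gene was Sec23a, an inner coat subunit of the vesicles that leave the ER, at 29.1, 34.6 and 33.6 CPM against 70.0, 75.5 and 79.0 CPM. Its log2 difference was 1.21 (SE 0.17, adjusted p = 0.0198), and with line as a block the adjusted p was 0.0745. Sec23a lies on chromosome 12, as Dnajb9 does, where the median of tested genes was 0.34. Like Ern2, neither gene passed without line 23 or line 34 (adjusted p = 0.153 and 0.135 for Bax, 0.17 and 0.162 for Sec23a) or when any 1 heterozygous library was left out, with adjusted p from 0.0951 to 0.105 for Bax and from 0.102 to 0.134 for Sec23a.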

How the data were processed

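Per the labels' protocols, total RNA of 6 organoid cultures was made into stranded libraries. Per the submitters' processing notes the tools were FastQC 0.11.5, STAR 2.5.2b, RSEM 1.3.0 and DESeq2 1.44.0 with GRCm38.p5; the strand setting is not given in the sources used here. The authors deposited expected counts per gene and transcript, TPM from the same files, and normalized expected counts, a signal scaled between libraries that served here only to match the gene names. Expected counts were rounded to whole numbers and tested in R 4.3.3 with edgeR 4.0.16 (filterByExpr, TMM, quasi-likelihood test, Benjamini-Hochberg over all genes tested, threshold 0.05). Log2 CPM used a prior count of 2. SEs were derived from the F statistic. Alternatives were other scalings and filters, DESeq2 1.42.0, limma 3.58.1 on log2(TPM + 1) and log2(TPM + 0.1) for genes with at least 1 TPM in 3 libraries, and leaving out libraries or lines. Scripts were tested on simulated data.

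The titles give the same 3 lines in both groups, so the line number pairs the libraries; deviations of paired libraries correlated at -0.3, 0.01 and 0.29 for lines 6, 23 and 34, and those of other pairs at -0.39 to 0.3. Coordinates come from GENCODE release 21 on GRCm38, in which 53274 of the 53379 identifiers were found, and promoters from RefSeq, with 24 of 30 members matched. The members, the other lists and the tests were chosen with earlier results of these data known. Described in full were members past the threshold in either edgeR fit, the 3 highest and 3 lowest, and 13 chosen by role; of other lists, 7 stress genes and any gene past the threshold. Intervals of counting error are not given, and RSEM's split of reads between overlapping or similar genes can shift single values. A further allele that both groups share and 1 marker gene are not reported here.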

Additional observations from a re-analysis of the deposited data

Results flagged for a closer look

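Hspa5, Creld2 and Derl3 had ratios of LOH to heterozygous beyond 0.5 on the log2 scale in opposite directions in lines 6 and 23. Hspa5 stood at 0.52 in line 6 and -0.83 in line 23, and Creld2 at 0.65 and -0.51. Derl3 went the other way, with -0.79 in line 6 and 0.53 in line 23, on 5 to 18 counts per library. The difference between lines was not tested, since each line has 1 library per group.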

How the results depend on the processing

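Ern2 kept its direction in all 18 alternatives. Over all genes, the number called was 757, and 213 with line as a block, the paired analysis, 2281 by DESeq2, 1911 and 1753 by limma on log2(TPM + 1) and log2(TPM + 0.1), and 0 to 2449 when libraries or lines were left out. It was 0 without the heterozygous library of line 6, 23 or 34 (where an unadjusted p under 0.05 was reached by 2966, 2637 and 2272 genes and by 5, 4 and 4 members) and without line 23 or line 34 (2253 and 2097 genes, and 3 and 3 members). It was 2449 without the LOH library of line 6 and 1422 without line 6; the share of higher calls was 83.1% with the block and 46.3% without the LOH library of line 6. Members called numbered 1, beside 5.21% of all genes. They numbered 2 with no filter, with at least 10 counts in every library or in the protein-coding table alone, beside 3.62, 5.26 and 5.96%. DESeq2 called 4, beside 15.7% of all genes, and each limma fit called 3, beside 16 and 14.7%. With libraries or lines left out 0 to 3 members were called, beside 0 to 16.2% of all genes. The members' median was -0.45 and -0.47 by limma and -0.08 to 0.15 on leaving out libraries or lines; their summed TPM ratio was 0.966 per protein-coding TPM. The cause of these shifts was not tested. The block changed the calls of Bax and Sec23a (adjusted p = 0.0534 and 0.0745) and of no other pathway gene named in the report.

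Of 536 alternative values of the members, 467 kept direction and side of the threshold, 5 were weaker, 13 stronger and 51 reversed. The reversed values fell in 14 members, with estimates from -0.22 in Hsp90b1 to 0.33 in Derl1. The median size over the list was 0.27. Reversed by scaling, filter or tool were Creld2 (0.02 with at least 10 counts), Pdia6 (-0.25 by both limma fits), P4hb (-0.08), Edem1 (-0.44 and -0.47), Derl1 (-0.07), Derl2 (-0.01 by RLE, block and DESeq2, -0.02 by upper quartile, -0.03 with no filter, -0.45 and -0.47 by limma), Sec61b (-0.01 by upper quartile and block, -0.03 with no filter, -0.39 by limma), Trib3 (-0.09 and -0.11), Ppp1r15a (-0.03 by upper quartile, -0.02 with no filter, -0.21 and -0.22 by limma) and Bloc1s1 (-0.24 and -0.25). On leaving out libraries or lines the estimates ranged from -0.38 to 0.21 for Xbp1, -0.43 to 0.30 for Hspa5, -0.47 to 0.13 for Hsp90b1, -0.55 to 0.16 for Hyou1, -0.26 to 0.15 for Dnajc3, -0.41 to 0.23 for Creld2, -0.45 to 0.09 for Calr, -0.03 to 0.28 for Pdia6, -0.13 to 0.08 for Derl2, -0.77 to 0.24 for Derl3, -0.31 to 0.17 for Sec61b, -0.28 to 0.09 for Atf4, -0.07 to 1.95 for Atf3, -0.29 to 0.80 for Trib3, -0.37 to 0.49 for Ppp1r15a and -0.03 to 0.27 for Bloc1s1. Where leaving out a library left 2 in a group, the spread was pooled over both groups. Depth limits Derl3 (5 to 18 counts) and the heterozygous Ern2 level (31 to 76 counts), while 27 of 30 members had at least 100 counts in every library.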

Other observations

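Some genes around the ER pathway lay far from 0 without passing the test, and they are named here after their values were seen. Agr2, a disulfide isomerase of mucus-secreting epithelium, measured 24.5, 43.0 and 30.6 CPM in the heterozygous and 192, 68.4 and 64.5 CPM in the LOH libraries of lines 6, 23 and 34, without overlap (log2 difference 1.73, SE 0.48, adjusted p = 0.0809, edgeR). Creb3l4, an ER-anchored transcription factor, stood at 1.28 ± 0.358 CPM against 8.02 ± 5.80 CPM (SD, n = 3), a log2 difference of 2.63 (adjusted p = 0.0645). Scara3, a reported target of IRE1-dependent decay, stood at 136 ± 7.65 CPM against 34.8 ± 23.4 CPM (SD, n = 3), a log2 difference of -1.96 (adjusted p = 0.079). Nupr1, a stress-induced gene, differed by 2.54 (adjusted p = 0.0903), and Ero1l, the oxidase that recharges disulfide isomerases, by 1.40 (adjusted p = 0.207), with line ratios of 0.10, 1.13 and 2.62.

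Of the marker lists, the ductal one had Cftr, the chloride channel of duct cells, past the threshold with line as a block (adjusted p = 0.0431, edgeR) and not without it (log2 difference 2.86, adjusted p = 0.0602). Of the 3 plasma and B cell markers tested, 1 was called, Prdm1, beside 5.21% of all genes. It stood at 1.34, 1.17 and 1.77 CPM in the LOH libraries and at most 0.0667 CPM in the heterozygous ones (adjusted p = 0.0228, and 0.0703 with line as a block, edgeR). Its counts were 2, 0 and 0 in the heterozygous and 23, 31 and 38 in the LOH libraries. Prdm1 thus had enough counts to test only through the LOH group.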
